A study of Mus musculus with 15 samples.

Results

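The genes described here encode the receptor system for interleukin-4 (IL-4) and IL-13 and its route to the nucleus. They are the cytokine Il4, the receptor chains Il4ra, Il13ra1, Il2rg and Il13ra2, the Janus kinases Jak1, Jak3 and Tyk2, and the transcription factors Stat6 and Irf4. They were chosen by name, and each symbol matched 1 of the 55335 rows of the expression table, so 10 genes were followed in all 15 samples. RNA-seq was performed on tumor-associated macrophages (TAMs) isolated by FACS with CD11b and F4/80 from orthotopic hepatocellular carcinoma (HCC) in C57BL/6 mice. The tumors grew in the liver for 3 weeks from Hepa1-6 cells, a mouse hepatoma line that carried a luciferase reporter. In the control group the Hepa1-6 cells carried a control lentivirus, in the miR-144 group a lentivirus for miR-144 overexpression, and in the miR-451a group a lentivirus for miR-451a overexpression, with 5 samples per group. The miRNAs were overexpressed in the HCC cells and not in the TAMs, so the groups compared are TAMs of the same host strain that differ in the tumor around them, and all 3 groups share the luciferase reporter and a lentiviral infection of the tumor cells. The labels do not say whether the samples of a group came from separate mice, so the p-values measure the spread between these samples, which may be technical. The study's own legend for this RNA-seq gives fewer replicates per group than the table has samples, and how the samples relate to separate mice is not given in the sources used here.

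IL-4 binds the IL-4 receptor alpha chain (Il4ra), which then recruits either the common gamma chain (Il2rg) to form the type I receptor or Il13ra1 to form the type II receptor. The type II receptor also binds IL-13, and Il13ra2 binds IL-13 with high affinity as a decoy. Kinases bound to the chains (Jak1 to Il4ra, Jak3 to Il2rg, Tyk2 to Il13ra1) phosphorylate STAT6, which drives the alternative activation program of macrophages, in which IRF4 also acts.

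The mature miRNAs that distinguish the groups are shown because they are the agents of the comparison. Which arm of the miR-144 hairpin the lentivirus was meant to supply is not given in the sources used here, so both arms are printed. The sequences are those of RefSeq on build GRCm38.p6, 5′ to 3′ on the plus strand of chromosome 11, with the seed (bases 2 to 8) in capitals.
miR-144-5p (chr11:78073010-78073032): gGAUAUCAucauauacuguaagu
miR-144-3p (chr11:78073047-78073066): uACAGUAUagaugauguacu
miR-451a (chr11:78073186-78073207): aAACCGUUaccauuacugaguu
The 3 seeds differ from each other. The rows for the host genes Mir144 and Mir451a were listed at 0 in all 15 samples, which checks nothing, since the overexpression was in the tumor cells and mature miRNAs are not captured by an mRNA library.

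The values are FPKM (fragments per kilobase of transcript, scaled to the mapped fragments of each sample) and were compared with limma on log2(FPKM + 1) over the 11419 genes that averaged 1 FPKM or more. Steps in the low values implied a depth of about 15.5 to 30.3 M fragments per sample. Of the macrophage markers, 7 of 7 reached 1 FPKM, with a summed level of 8660 to 9470 FPKM in the control samples, 14600 to 16500 with miR-144 and 14300 to 15500 in the miR-451a group. Adgre1, which encodes the sorted surface protein F4/80, averaged 137 FPKM in control TAMs, 361 with miR-144 and 354 in the miR-451a group. Itgam, which encodes the other sorted protein, CD11b, varied more between samples. It averaged 25.5 FPKM (9.99 to 38.8) in control TAMs, 63.8 (43.9 to 76.1) with miR-144 and 53.4 (24.6 to 74.0) in the miR-451a group. Cd68, a lysosomal protein of the same list, fell from 1440 to 919 and 910 FPKM, and most of the summed level was Lyz2, at 6890, 13200 and 12600 FPKM. Clec4f, a defining Kupffer cell marker, and Alb, the defining hepatocyte transcript, were listed at 0 in all 15 samples, as were Apoa1, Ttr, Serpina1a and Apoc3 of the hepatocyte list. The TAMs were sorted from liver tumors and the table holds no counts, so these exact 0 values are given as listed and are not read as absence of these cells. No gene of the dendritic cell, neutrophil or hepatocyte and hepatoma lists reached 1 FPKM. In the lists for Kupffer cells (Cd5l), NK cells and innate lymphoid cells (Rora), B cells (Cd79b), T cells (Cd4), eosinophils (Siglecf) and basophils and mast cells (Mcpt8) 1 gene each did. Several of these levels moved with the groups. Cd5l averaged 3.40 FPKM in control TAMs, 29.8 with miR-144 and 27.1 in the miR-451a group, and the summed Kupffer cell list was at 3.30 to 3.75, 17.0 to 49.9 and 15.7 to 47.0 FPKM. Cd79b averaged 0.185, 1.15 and 1.38 FPKM, Cd4 1.32, 6.86 and 7.16 FPKM, Siglecf 2.26, 0.357 and 0.355 FPKM, and Rora 1.86, 1.95 and 1.88 FPKM. In the list for endothelial cells and fibroblasts 4 of 6 genes did, with a summed level of 71.7 to 90.6 FPKM in control TAMs, 92.9 to 145 with miR-144 and 127 to 160 in the miR-451a group, most of it Col1a1. The part of these markers in the pathway differences was not tested. In bulk RNA, fewer cells of a type and less RNA per cell cannot be told apart.

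In TAMs from tumors with miR-144 overexpression, the receptor chains Il13ra1 and Il4ra rose 2.49-fold and 2.16-fold in mean FPKM against control, Il4 rose 1.98-fold and Jak3 1.71-fold, while Irf4 fell to 0.209 of its control level. The miR-451a group gave 2.50-fold for Il13ra1, 2.20-fold for Il4ra, 1.98-fold for Il4, 1.89-fold for Jak3 and 0.246 for Irf4. Stat6, Tyk2 and Il2rg rose by smaller amounts, between 1.21-fold and 1.27-fold. The decoy receptor Il13ra2 was above 1 FPKM in each control sample and listed at 0 in 9 of the 10 samples with miRNA overexpression. Both comparisons use the same 5 control samples.

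Of the 10 genes, 9 passed the filter on low values, and Il13ra2 did not. In miR-144 versus control, 9 of these 9 passed an adjusted p of 0.05 in limma, 8 higher and 1 lower. The same threshold was passed by 67.2% of all genes tested, with 47.1% of them higher and 20.1% lower. In miR-451a versus control, 8 of 9 passed, 7 higher and 1 lower, against 68.3% of all genes tested, with 48.1% higher and 20.3% lower. These counts include Il4, which reached the filter only through the groups with miRNA overexpression and so had to differ. They are a description, and without Il4 they are 8 of 8 and 7 of 8. The samples of the groups did not overlap for 8 of the 9 genes in either comparison, and for 53.9% and 55.2% of all genes tested.

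The median log2 fold change of all genes tested was 0.13 in miR-144 versus control and 0.14 in miR-451a versus control, and that of the 9 pathway genes was 0.29 and 0.33. Of the calls over all genes, 70.1% and 70.3% were higher, and centring each sample on its median brought these shares to 50% and 49.6%. Since such centring sets the median difference near 0, the more even split follows largely from the operation itself. After that centring 6 pathway genes were higher and 1 lower in miR-144 versus control, and 7 were higher and 2 lower in miR-451a versus control. These counts and the medians of the 9 pathway genes include Il4, which had to differ to be tested, so they are a description. Of all genes tested, 30.8% were then higher and 30.7% lower in the first comparison, and 31.3% and 31.8% in the second. Relative to the median of all genes, the differences were largest for Il13ra1, at 1.01 and 1.0 on the log2 scale, and for Il4ra, at 0.91 and 0.93, among the genes that rose. Irf4 lay at −1.77 and −1.63 relative to that median. Jak1 was the only pathway gene that was higher in FPKM but lay below the median, by −0.05 and −0.07.

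**Figure D1:**
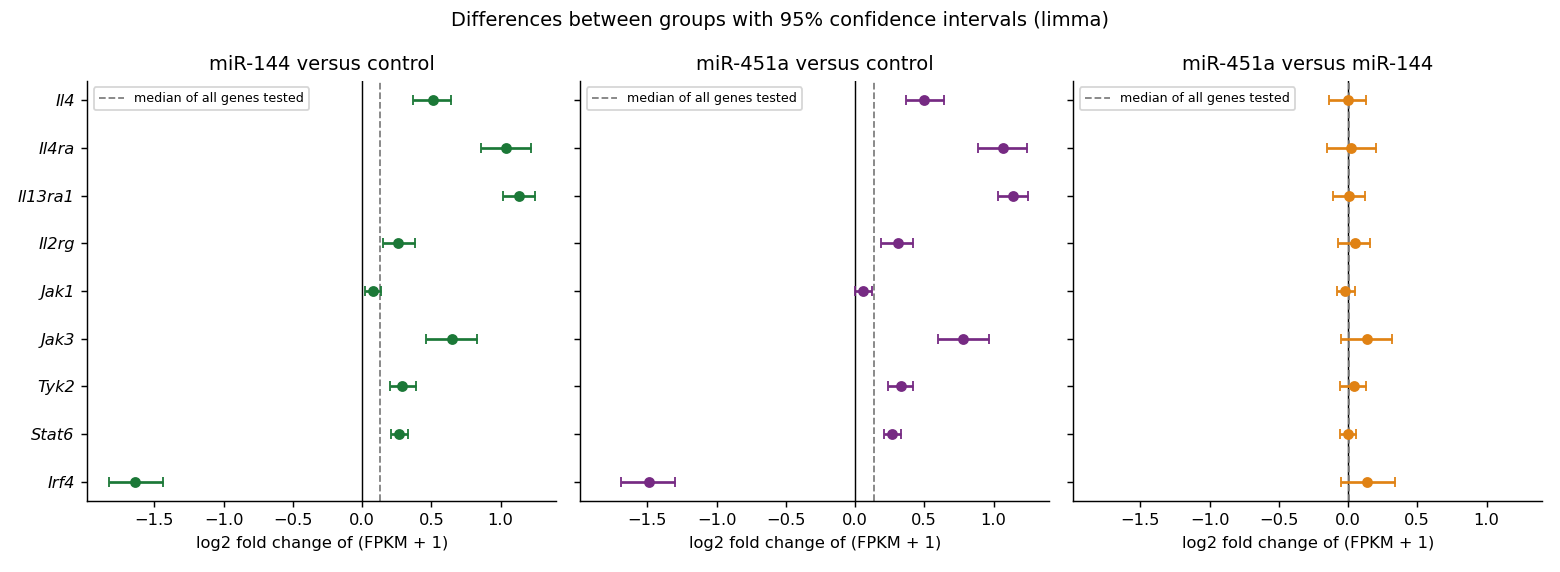
Log2 fold changes of (FPKM + 1) with 95% confidence intervals from limma for the 9 pathway genes that averaged 1 FPKM or more, in 3 panels for miR-144 versus control, miR-451a versus control and miR-451a versus miR-144; the dashed line is the median of all genes tested. Il4ra and Il13ra1 lie at 1.04 to 1.14 against control, Irf4 at −1.64 and −1.49, and every interval of the third panel includes 0.

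Il4 (ENSMUSG00000000869) encodes the cytokine that activates both receptor types. In GENCODE M21 on GRCm38, from which the positions of the other genes are taken too, it lies on chr11:53602982-53618669, minus strand. Its FPKM in the 5 control samples was 0.93, 0.684, 0.756, 0.709 and 0.683. With miR-144 it was 1.31, 1.64, 1.58, 1.66 and 1.26, and in the miR-451a group 1.54, 1.32, 1.73, 1.49 and 1.35. The lowest sample with miRNA overexpression lay above the highest control sample. The means were 0.752 ± 0.104 (SD, n = 5), 1.49 ± 0.191 and 1.49 ± 0.163 FPKM. Its log2 fold change was 0.51 (95% confidence interval 0.37 to 0.64, limma adjusted p = 4.41e-06) with miR-144 and 0.50 (0.37 to 0.64, adjusted p = 4.33e-06) in the miR-451a group. Il4 passed the filter on low values only through the groups with miRNA overexpression, so it had to differ to be tested, and its call is a description. At levels this near the pseudocount of 1 the log2 scale understates the change, and a pseudocount of 0.1 gave 0.90 in either comparison. Median centring gave 0.37 and 0.36, and quantile normalization 0.31 and 0.30. At the implied depth these levels stood for an estimated 9 to 13 fragments per control sample and 13 to 27 per sample with miRNA overexpression, so the Il4 values rest on few fragments.

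Il4 is best known as a product of T cells, basophils and mast cells, and the markers of these cells are given beside it. The summed level of the 5 basophil and mast cell markers was 0.125 to 0.506 FPKM in control TAMs, 0.677 to 1.98 with miR-144 and 0.719 to 1.39 in the miR-451a group. Among them, Mcpt8, a basophil protease, averaged 0.228, 0.876 and 0.712 FPKM, and Fcer1a was listed at 0 in all 15 samples. The summed level of the 8 T cell markers was 1.37 to 1.72 FPKM in control TAMs, 5.60 to 8.88 with miR-144 and 5.37 to 9.51 in the miR-451a group, nearly all of it Cd4, which macrophages can also express. Other T cell markers stayed under 1 FPKM and did not all move alike. Cd2 averaged 0.134 FPKM in control TAMs, was listed at 0 in each miR-144 sample and averaged 0.00987 in the miR-451a group. Lck averaged 0.0806, 0.0652 and 0.0591 FPKM, and Trac 0.0473, 0.0668 and 0.118 FPKM, each with overlapping ranges. Cd3d averaged 0, 0.0108 and 0.00702 FPKM, and Cd8a 0, 0.00785 and 0 FPKM. Cd3e and Cd3g, which encode defining chains of the T cell receptor complex, were listed at 0 in all 15 samples. The part of either list in the Il4 level was not tested. Il13, the other ligand of the type II receptor, did not reach the filter: it averaged 0.016 FPKM in control TAMs, 0.0373 with miR-144 and 0.0209 in the miR-451a group, with the ranges of the groups overlapping.

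Il4ra (ENSMUSG00000030748, chr7:125552120-125579474, plus strand) encodes the chain shared by both receptor types. Control samples held 12.1, 11.3, 12.3, 11.9 and 11.7 FPKM. The samples with miR-144 held 22.9, 24.4, 27.1, 30.3 and 23.4 FPKM, and the miR-451a samples 24.7, 24.5, 29.1, 30 and 22.3 FPKM. Each of the latter 10 samples lay above 22 FPKM and each control sample below 13 FPKM, and the values were more spread with miRNA overexpression, with a coefficient of variation of 12.1% and 12.6% against 3.33% in control TAMs. The group means were 11.9 ± 0.395, 25.6 ± 3.09 and 26.1 ± 3.29 FPKM (SD, n = 5). In limma the log2 fold change was 1.04 (0.86 to 1.22, limma adjusted p = 2.86e-08) with miR-144 and 1.07 (0.89 to 1.24, adjusted p = 2.08e-08) in the miR-451a group. An antisense gene, Gm44876, overlaps 9.5% of its exon bases but was listed at no more than 0.0268 FPKM.

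Il13ra1 (ENSMUSG00000017057, chrX:36112110-36171259, plus strand) encodes the second chain of the type II receptor. It was at 3.92, 4.02, 4.05, 4.35 and 4.32 FPKM in control TAMs. It was at 10.7, 10.4, 10.9, 10.2 and 9.22 FPKM with miR-144 and at 10.5, 10.9, 10.7, 10.7 and 8.92 FPKM in the miR-451a group. The groups with miRNA overexpression were far from the control range, and in each of them the sample numbered 5 was the lowest. Against control the log2 fold change was 1.13 (1.02 to 1.25, limma adjusted p = 5.31e-11) with miR-144 and 1.14 (1.03 to 1.25, adjusted p = 4.74e-11) in the miR-451a group, the largest rise among these genes in either comparison.

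Il2rg (ENSMUSG00000031304, chrX:101264378-101268255, minus strand) encodes the common gamma chain, which the type I receptor shares with the receptors for IL-2, IL-7, IL-9, IL-15 and IL-21. Control samples held 39.1, 41.3, 43.3, 42.6 and 40.9 FPKM. The samples with miR-144 held 50.2, 50.6, 50, 44.0 and 55.0 FPKM, and the miR-451a samples 52.1, 53.1, 49.1, 47.9 and 55.5 FPKM. The groups did not overlap, although miR-144 replicate 4 lay close to the highest control sample. The log2 fold change was 0.26 (0.15 to 0.38, limma adjusted p = 0.000545) with miR-144 and 0.31 (0.19 to 0.42, adjusted p = 0.000121) in the miR-451a group. With each sample centred on its median, Il2rg was at 0.13 in miR-144 versus control and no longer passed (adjusted p = 0.0601, over alternatives 5.71e-05 to 0.0601). A read-through gene, Gm20489, holds 42.0% of the 50-base stretches of the longest Il2rg transcript. It was listed at no more than 0.00311 FPKM, and how the counting split fragments between the 2 genes is uncertain.

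Il13ra2 (ENSMUSG00000031289, chrX:147383476-147429192, minus strand) encodes the decoy receptor for IL-13. Control samples held 2.01, 1.80, 1.68, 1.41 and 1.87 FPKM. It was listed at 0 in 5 of 5 samples with miR-144 and in 4 of 5 in the miR-451a group, and at 0.0188 FPKM in miR-451a replicate 5. No fold change is given for it, because the table holds no counts against which a 0 could be read. Its mean over all samples was under 1 FPKM, so it entered only the fit without the filter, in which its limma adjusted p was 7.12e-12 with miR-144 and 6.44e-12 in the miR-451a group. In control TAMs its level stood for an estimated 51 to 114 fragments per sample.

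**Figure D2:**
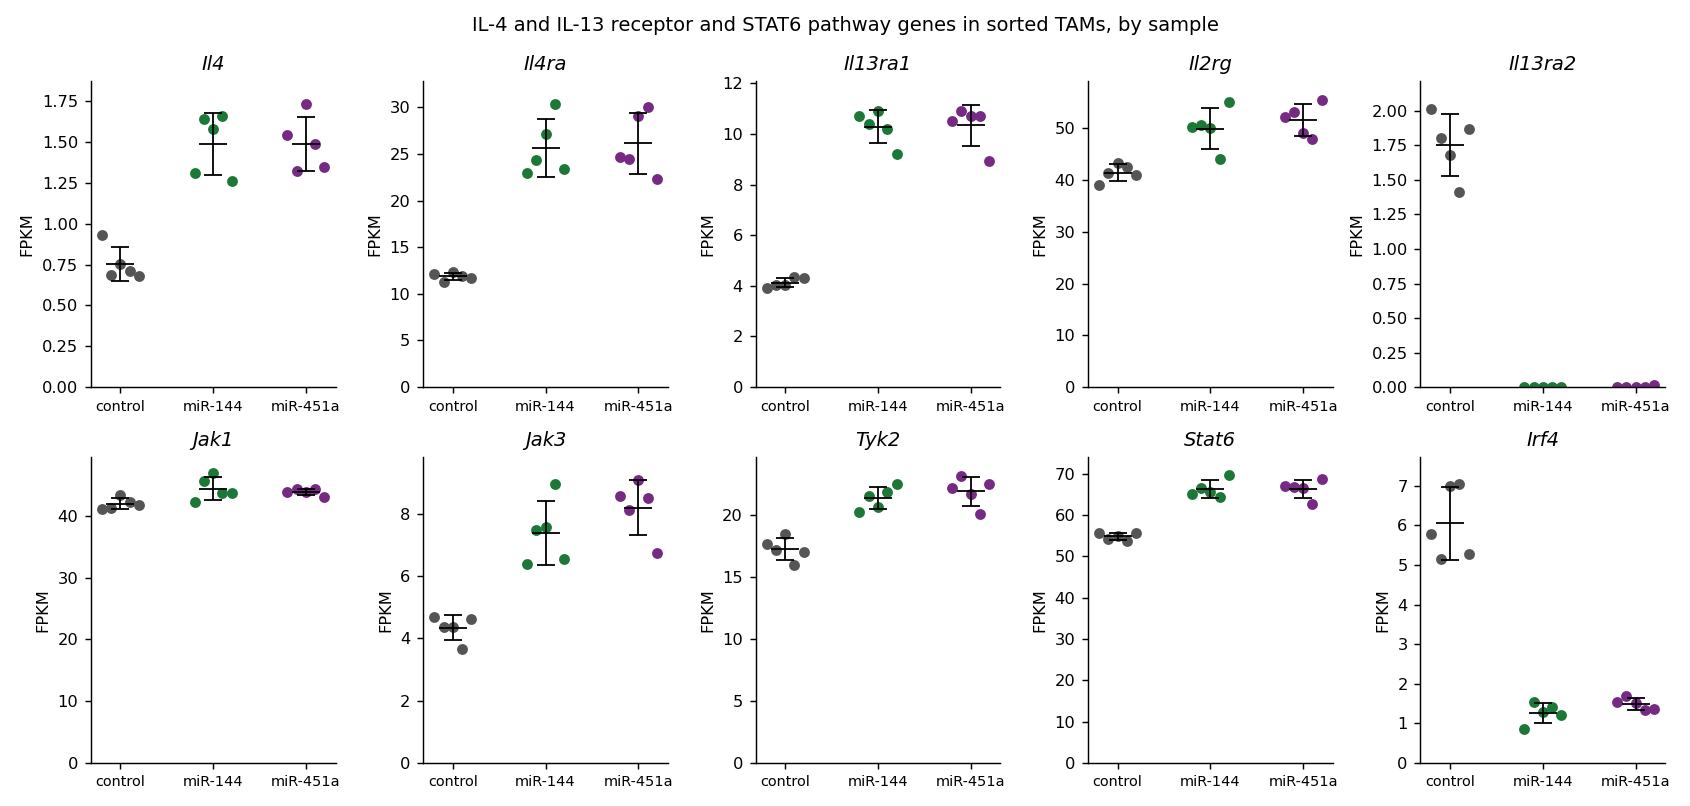
FPKM (linear axis from 0) of the 10 pathway genes in each of the 15 samples, with 1 panel per gene; points are samples, and bars give the group mean ± SD (not drawn for Il13ra2 in the groups with samples listed at 0). Il4ra and Il13ra1 sit at 22.3 to 30.3 and 8.92 to 10.9 FPKM with miRNA overexpression, above 11.3 to 12.3 and 3.92 to 4.35 FPKM in control TAMs, while Irf4 is at 0.866 to 1.69 FPKM against 5.16 to 7.06 FPKM.

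The ratio of Il2rg to Il13ra1 sets the gamma chain of the type I receptor against the second chain of the type II receptor within each sample, so it does not depend on how a sample was scaled. In control TAMs it was 9.97, 10.3, 10.7, 9.80 and 9.46. It was 4.71, 4.86, 4.60, 4.29 and 5.96 with miR-144 and 4.97, 4.90, 4.60, 4.47 and 6.23 in the miR-451a group. The groups with miRNA overexpression did not overlap the control group, and the mean log2 ratio fell by 1.05 with miR-144 and by 1.01 in the miR-451a group. In a two-sided exact permutation test the raw p was 0.00794 in each comparison, the smallest that 5 samples against 5 allow, and 0.0179 after adjustment over the 9 ratio tests (3 ratios in 3 comparisons).

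The ratio of Il13ra1 to Il4ra, the chains of the type II receptor, was 0.323 to 0.369 in control TAMs, 0.338 to 0.465 with miR-144 and 0.356 to 0.443 in the miR-451a group. The ranges overlapped. The mean log2 ratio was 0.21 and 0.19 higher than in control TAMs, and neither difference passed (exact permutation adjusted p = 0.0714 for each). Without miR-144 replicate 4 the first difference was 0.27 and passed (exact permutation adjusted p = 0.0286, between 0.0286 and 0.44 over its alternatives). With 1 FPKM added to each value the differences were 0.09 and 0.07.

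Jak1 (ENSMUSG00000028530, chr4:101152367-101265282, minus strand) encodes the kinase bound to Il4ra and is shared by many cytokine receptors. Control samples held 41.1, 41.3, 43.4, 42.2 and 41.8 FPKM. The samples with miR-144 held 42.2, 45.6, 46.9, 43.7 and 43.6 FPKM, and the miR-451a samples 43.8, 44.3, 43.9, 44.3 and 43.1 FPKM. These ranges overlapped, and Jak1 had the smallest differences of the 9 genes tested. The log2 fold change was 0.08 (0.02 to 0.14, limma adjusted p = 0.0251) with miR-144, and 0.06 (0.00 to 0.12, adjusted p = 0.0657) in the miR-451a group, which did not pass; both turned to −0.06 and −0.08 when each sample was centred on its median, and the latter then passed as lower (adjusted p = 0.0316). Rescaling to TPM gave the opposite call for miR-451a versus control, 0.15 and higher (adjusted p = 0.00127, the lowest over alternatives that ran up to 0.133), so the direction of Jak1 depends on the scaling. The call in miR-144 versus control was lost without control replicate 1 (adjusted p = 0.0587), control replicate 2 (0.0535), miR-144 replicate 2 (0.0628) or miR-144 replicate 3 (0.0698), and when only the 2 groups compared were fitted (0.055), and over all alternatives the adjusted p ran from 0.00107 to 0.137. Without control replicate 3 the difference in the miR-451a group passed as higher (adjusted p = 0.043), as it did when only the 2 groups compared were fitted (0.0432) and with the replicate number as a block (0.04999).

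Jak3 (ENSMUSG00000031805, chr8:71676296-71690575, plus strand) encodes the kinase bound to the common gamma chain. It was at 4.67, 4.37, 4.37, 3.66 and 4.61 FPKM in control TAMs. It was at 6.39, 7.49, 7.57, 8.97 and 6.54 FPKM with miR-144 and at 8.58, 8.11, 9.09, 8.50 and 6.73 FPKM in the miR-451a group. The lowest of these 10 samples lay above the highest control sample. On the log2 scale the fold change was 0.65 (0.46 to 0.83, limma adjusted p = 9.56e-06) with miR-144 and 0.78 (0.60 to 0.97, adjusted p = 1.18e-06) in the miR-451a group, the largest rise among the kinases. Insl3, on the same strand, shares 7.5% of the Jak3 exon bases and was listed at 0.0933 to 0.899 FPKM.

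Tyk2 (ENSMUSG00000032175, chr9:21104068-21131243, minus strand) encodes the kinase bound to Il13ra1. Control samples held 17.7, 17.2, 18.5, 16 and 17.0 FPKM. The samples with miR-144 held 20.3, 21.6, 20.7, 21.9 and 22.5 FPKM, and the miR-451a samples 22.2, 23.2, 21.7, 20.1 and 22.5 FPKM. There was no overlap with the control group. Tyk2 had a log2 fold change of 0.29 (0.20 to 0.39, limma adjusted p = 2.68e-05) with miR-144 and 0.33 (0.24 to 0.42, adjusted p = 7.8e-06) in the miR-451a group. Median centring brought these to 0.16 and 0.19, which still passed.

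Jak3 rose more than Tyk2 within samples. Their ratio was 0.264, 0.255, 0.236, 0.229 and 0.271 in control TAMs, 0.315, 0.347, 0.366, 0.410 and 0.291 with miR-144, and 0.386, 0.350, 0.418, 0.422 and 0.300 in the miR-451a group. The groups with miRNA overexpression did not overlap the control group. The mean log2 ratio was 0.46 and 0.57 higher than in control TAMs, with a raw p of 0.00794 for each in the exact permutation test and 0.0179 after adjustment. So the pair of kinases and the pair of receptor chains they bind shifted in opposite directions: Jak3 gained on Tyk2, while Il2rg lost against Il13ra1.

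**Figure D3:**
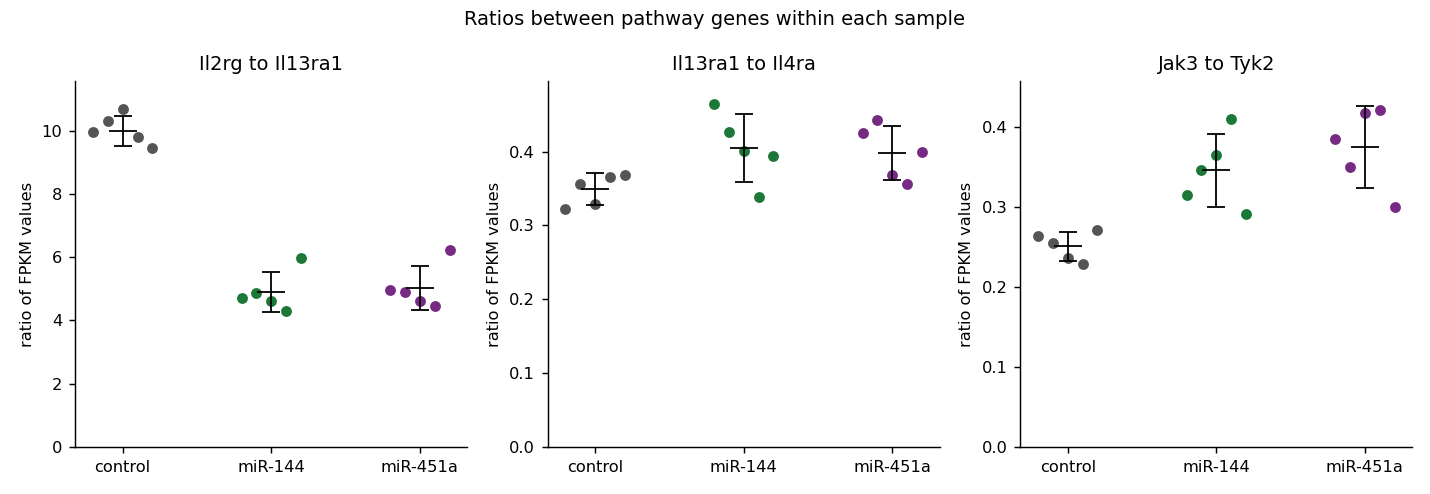
Ratios of FPKM values within each sample (linear axes from 0) for Il2rg to Il13ra1, Il13ra1 to Il4ra and Jak3 to Tyk2, with points for samples and bars for the group mean ± SD. The first ratio is 9.46 to 10.7 in control TAMs and 4.29 to 6.23 in the other groups, the second overlaps between groups, and the third is 0.229 to 0.271 in control TAMs and 0.291 to 0.422 in the other groups.

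Stat6 (ENSMUSG00000002147, chr10:127642986-127660957, plus strand) encodes the transcription factor that the receptors activate and was the most abundant of these transcripts in each group. Control samples held 55.6, 54.2, 55.0, 53.7 and 55.7 FPKM. The samples with miR-144 held 65.1, 66.6, 65.7, 64.5 and 69.8 FPKM, and the miR-451a samples 67.0, 66.8, 66.5, 62.8 and 68.8 FPKM. The control values were tight, with a coefficient of variation of 1.61%, and lay apart from those of the other groups. The log2 fold change was 0.27 (0.21 to 0.33) in each comparison, with a limma adjusted p of 9.03e-07 for miR-144 and 8.3e-07 for miR-451a. Relative to the median of all genes this was 0.14 and 0.13. The RNA level says nothing of STAT6 phosphorylation, which RNA-seq does not measure. The protein-coding gene Nab2, on the opposite strand, shares 40 bases with the Stat6 exons. Its level was 21.7 to 23.2 FPKM in control TAMs, 13.4 to 16.6 with miR-144 and 11.8 to 15.4 in the miR-451a group, and whether fragments were counted by strand is not given in the sources used here.

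Irf4 (ENSMUSG00000021356, chr13:30749226-30766976, plus strand) encodes a transcription factor of alternatively activated macrophages. It was at 5.78, 5.16, 7.0, 7.06 and 5.27 FPKM in control TAMs. It was at 0.866, 1.54, 1.29, 1.42 and 1.21 FPKM with miR-144 and at 1.55, 1.69, 1.51, 1.34 and 1.36 FPKM in the miR-451a group. The lowest control sample was above the highest of the other samples. The means were 6.05 ± 0.923, 1.26 ± 0.256 and 1.49 ± 0.144 FPKM (SD, n = 5). This gave a log2 fold change of −1.64 (−1.83 to −1.44, limma adjusted p = 5.04e-10) with miR-144 and −1.49 (−1.69 to −1.30, adjusted p = 1.41e-09) in the miR-451a group, opposite in sign to the other 8 genes tested on the deposited scale (Jak1 turned negative after median centring).

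The order of the mean levels per length changed in part between groups. In control TAMs it was Stat6, Jak1, Il2rg, Tyk2, Il4ra, Irf4, Jak3, Il13ra1, Il13ra2 and Il4, and the neighbours Jak1 and Il2rg, and Jak3 and Il13ra1, overlapped in their ranges. With miR-144 it was Stat6, Il2rg, Jak1, Il4ra, Tyk2, Il13ra1, Jak3, Il4, Irf4 and Il13ra2, where Il2rg overlapped Jak1 and Il4 overlapped Irf4. The miR-451a group had the same order, with overlaps between Il4ra and Tyk2, Il13ra1 and Jak3, and Il4 and Irf4. Il4ra thus stood below Tyk2 in control TAMs and above it with miR-144, and Irf4 moved from above Il13ra1 to below it in either group.

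The direct comparison asks whether TAMs of the 2 miRNA groups differ. In miR-451a versus miR-144, 0 of 9 genes passed in limma, and 0 had an unadjusted p under 0.05, where 0% of the 11419 genes tested passed. Of all genes, 596 had an unadjusted p under 0.05, and the smallest adjusted p was 0.0752. The 95% intervals of the log2 difference were narrowest for Stat6 (−0.06 to 0.06) and Jak1 (−0.08 to 0.05), and widest for Irf4 (−0.05 to 0.34) and Jak3 (−0.05 to 0.32). They leave room for a miR-451a level of Jak3 or Irf4 that is higher, as were the means, at 8.20 against 7.39 FPKM and 1.49 against 1.26 FPKM. No ratio passed either, with exact permutation adjusted p-values of 0.741, 0.841 and 0.469 for differences of 0.04, −0.02 and 0.12 on the log2 scale.

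Of the 14 signalling partners of the receptors, 11 passed the filter, and 6 rose and 5 fell with miR-144, while 4 rose, 5 fell and 2 did not pass in the miR-451a group. The shares over all genes tested were 47.1% higher and 20.1% lower with miR-144, and 48.1% and 20.3% in the miR-451a group. Their median log2 fold change was 0.11 and 0.07, beside 0.13 and 0.14 over all genes tested. Among the feedback inhibitors of cytokine receptors, Cish fell from a mean of 7.38 FPKM in control TAMs to 0.12 with miR-144 and 0.107 in the miR-451a group, and Socs1 from 4.75 to 0.243 and 0.267 FPKM. Both passed the filter only through their control level, so their calls are a description. Socs3, of the same family and named after its values were seen, rose from 6.35 to 12.1 and 12.9 FPKM. Ptpn6, which encodes the phosphatase SHP-1, rose from 53.1 to 124 and 123 FPKM, and Jak2 fell from 22.7 to 10.1 and 10.6 FPKM.

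Of the 12 STAT6 cofactors and downstream regulators, all of which passed the filter, 4 rose and 8 fell with miR-144, and 4 rose, 7 fell and 1 did not pass in the miR-451a group. Over all genes tested 47.1% and 48.1% were higher, and 20.1% and 20.3% were lower. The median log2 fold change was −0.44 and −0.38. Egr2, an early IL-4 response transcription factor, fell from 28.2 FPKM in control TAMs to 1.94 with miR-144 and 1.34 in the miR-451a group. Pparg, the nuclear receptor of lipid metabolism, fell from 37.4 to 9.55 and 9.60 FPKM, its coactivator Ppargc1b from 4.35 to 1.31 and 1.56 FPKM, and Cebpb from 61.5 to 28.3 and 27.0 FPKM.

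Of the 18 genes known to be induced by IL-4, 14 passed the filter, some of them (Chil3 among them) through their control level alone, so their count is a description. In either comparison 13 of them fell and 1 rose, beside 20.1% and 20.3% of all genes tested that were lower, and the median log2 fold change was −3.40 and −3.34. Chil3, a chitinase-like lectin, fell from 4790 FPKM in control TAMs to 0.352 with miR-144 and 0.431 in the miR-451a group. The other 10 samples listed Retnla at 0, against 345 to 502 FPKM in control TAMs. Chil4 fell from 134 to 0.00461 FPKM with miR-144 and was listed at 0 in each miR-451a sample. Chil3 and Chil4 share 18.5% of their 50-base stretches, so the split of fragments between them is uncertain. The gene that rose was Clec10a, a C-type lectin, at 9.35, 24.3 and 25.9 FPKM, named after its values were seen. Its neighbour in sequence, Mgl2, fell from 45.7 to 2.58 and 2.99 FPKM, and 10.6% of the 50-base stretches of Clec10a occur in Mgl2.

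Of the 11 other genes of the common gamma chain family (receptor chains and their ligands), 4 passed the filter, the receptor chains Il21r, Il7r and Il15ra and the ligand Il15, and 3 rose and 1 fell in either comparison, beside 47.1% and 48.1% of all genes tested that were higher, with a median log2 fold change of 0.74 and 0.86. Il21r, the IL-21 receptor, rose from 1.04 FPKM in control TAMs to 9.97 with miR-144 and 9.72 in the miR-451a group. Il7r, the IL-7 receptor alpha chain, fell from 89.6 to 21.8 and 19.8 FPKM. Il15 rose from 2.94 to 6.85 and 7.55 FPKM and its receptor chain Il15ra from 1.10 to 1.92 and 2.20 FPKM.

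Among 14 other STAT and IRF genes, 12 passed the filter, and 8 rose, 1 fell and 3 did not pass in either comparison, where 47.1% and 48.1% of all genes tested were higher. The median log2 fold change was 0.30 and 0.27. Irf7, a factor of the interferon response, rose from 7.85 FPKM in control TAMs to 36.3 with miR-144 and 36.8 in the miR-451a group, Stat2 from 15.2 to 27.8 and 26.8, and Irf9 from 7.43 to 12.9 and 13.2 FPKM.

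**Figure D4:**
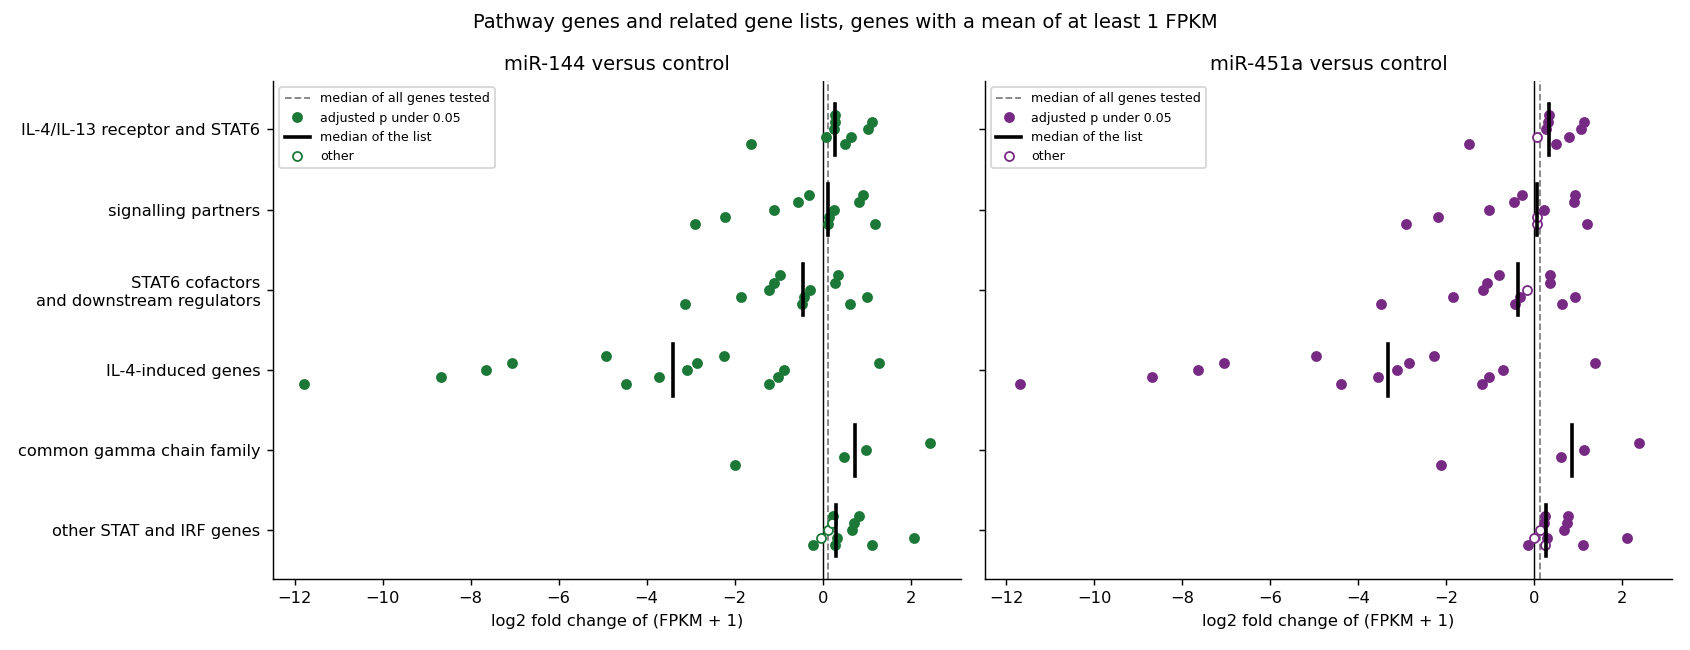
Log2 fold changes of (FPKM + 1) against control for the pathway genes and the 5 related lists, with 1 point per gene that averaged 1 FPKM or more (filled where the adjusted p was under 0.05, open otherwise), a bar for the median of each list and a dashed line for the median of all genes tested. The pathway genes lie between −1.64 and 1.14, while the IL-4-induced genes reach −11.78 and all but Clec10a lie below 0.

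STAT6 is known to bind a palindrome with a spacer of 4 bases, TTCNNNNGAA, whereas other STAT proteins favour a spacer of 3, TTCNNNGAA. Being palindromes, both patterns read the same on either strand. They were searched separately in RefSeq promoters on GRCm38.p6, taken as 250 bases before and 50 after each start, and a stretch may hold both. TTCNNNNGAA was present in 6.95% of all 32851 promoters and in 1 of the 11 promoters of the 10 pathway genes, that of Il4. It was present in 3 of the 12 promoters of the 11 IL-4-induced genes that matched, namely Ccl17, Pdcd1lg2 and Retnla. TTCNNNGAA was present in 8.3% of all promoters, in 1 of the 11 pathway promoters (a second start of Il4) and in 3 of the 12 promoters of IL-4-induced genes (Ccl17, Chil3 and Chil4). The 4 stretches with the longer spacer are shown in full to compare Il4 with the IL-4-induced genes, 5′ to 3′ on the gene's own strand, with the match in capitals.
Il4 (chr11:53618813-53618842, minus strand): ttggtctgatTTCACAGGAAaatttacctg
Retnla (chr16:48842454-48842483, plus strand): agaatcataaTTCACAAGAAattgctaaac
Ccl17 (chr8:94810289-94810318, plus strand): cgagtgaccaTTCTCTGGAAagccacaaac
Pdcd1lg2 (chr19:29410827-29410856, plus strand): catgctccagTTCCTCAGAAaccattctgg
The matches begin 167, 145, 154 and 82 bases before the start, in this order. They are matches of letters and were not tested for binding. Of these 4 genes, Il4 rose with miRNA overexpression, whereas Retnla and Pdcd1lg2 fell (Pdcd1lg2 from 25.5 to 0.196 and 0.251 FPKM). Ccl17 was under the filter, at 0.89 FPKM in control TAMs, 0.0221 with miR-144 and 0.0132 in the miR-451a group.

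The genes whose pattern over the 15 samples was most like that of Irf4, by the root mean square difference of log2(FPKM + 1) after centring each gene on its own mean, were Rnf19b, Tmem144 and Acpp, each at 0.132. Rnf19b, for example, averaged 95.5 FPKM in control TAMs, 30.3 with miR-144 and 29.8 in the miR-451a group. For Il4ra they were Nuak1 (0.0679), Lcp2 (0.0747) and Slc26a11 (0.0756), and for Stat6 they were Edc4 (0.0259) and Klf13 (0.0299).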

How the data were processed

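RNA of sorted TAMs was sequenced on Illumina instruments. The authors deposited FPKM per Ensembl gene for 15 samples. Per the labels, FastQC 0.11.2, STAR and StringTie were used, in roles not stated, and the genome build and annotation are not given in the sources used here. Sample groups came from the labels.

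FPKM were tested as log2(FPKM + 1) with limma 3.58.1 (R 4.3.3): 3 group means over all 15 samples, mean-variance trend, genes that averaged 1 FPKM or more, and Benjamini-Hochberg adjustment over all 11419 genes at 0.05. The fit was tested on simulated data. Ratios were tested by two-sided exact permutation. Counts could not be recovered, since 36.1% to 50.9% of low values lay on whole-fragment steps (10% by chance, tolerance 5% of a step), so depths and fragment numbers are estimates. No 2 columns were identical. Of the gene IDs, 99.67% occur in GENCODE M21, whose coordinates are given.

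The pathway genes and lists were chosen with earlier results of these data known. The text names all 10 genes, up to 4 called genes per list with the largest change in miR-144 versus control, and up to 3 nearest patterns for Irf4, Il4ra and Stat6; some genes that this rule selects are not reported here. Alternatives were the pseudocount, filter, scaling, replicate block, trend, groups fitted and each sample left out.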

Additional observations from a re-analysis of the deposited data

Results flagged for a closer look

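In 38 groups of 5 samples (the pathway genes and the 3 ratios), the gap between the most extreme sample and its nearest neighbour was compared with the range of the group, and 3 groups had a gap larger than Dixon's 95% limit of 0.71, where chance gives about 5%. All 3 were miR-451a replicate 5, and they are not separate observations: the ratio contains the Il13ra1 level, and for Il13ra2 a single value above 0 beside 4 at 0 gives the largest possible gap by construction. Its Il13ra1 level of 8.92 FPKM lay below the next lowest sample at 10.5 FPKM, a gap of 0.812 of the range. Its ratio of Il2rg to Il13ra1 of 6.23 lay above the next highest at 4.97, a gap of 0.718 of the range. It was the only miR-451a sample with a value above 0 for Il13ra2, 0.0188 FPKM, a gap of 1.0 of the range that amounts to an estimated 1 fragment. The values of Il13ra1 and of the ratio in this sample remained well apart from the control ranges of 3.92 to 4.35 FPKM and 9.46 to 10.7.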

How the results depend on the processing

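Of 507 recomputed values for single pathway genes, 495 kept their call (passed in the same direction, or did not pass). The others concerned Jak1, with reversed log2 fold changes of −0.06 and −0.08 under median centring, and Il2rg under the same centring. With a minimum mean of 5 FPKM, 4776 and 4821 genes passed in miR-144 and miR-451a versus control, beside 7668 and 7804, since 6639 genes were then tested. Leaving out each sample in turn gave 7385 to 7497 and 7538 to 7697 genes, 8 to 9 pathway genes in each, and 0 to 2 genes in miR-451a versus miR-144, none of them in the pathway. The ratio of Il13ra1 to Il4ra in miR-144 versus control ran from 0.16 to 0.27 in the same way.

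The labels do not say that a number marks a shared mouse or batch, and the numbers did not meet the rule for pairing, by which every pair must correlate above 0.1. Deviations of same-numbered samples correlated on average at −0.0122 for control and miR-144 (−0.127 to 0.108, against 0.00312 for other numbers). The average was 0.14 for control and miR-451a (0.0658 to 0.264, against −0.0347 for other numbers). For miR-144 and miR-451a it was 0.101 (−0.15 to 0.241, against −0.0251 for other numbers). In the same order, 0, 3 and 1 of 5 samples correlated best with their own number. With the number as a replicate block, 7711 and 7859 genes passed, 9 pathway genes in each comparison, with Jak1 at adjusted p = 0.04999 in miR-451a versus control. A paired sign-flip test of 5 pairs cannot go below 0.0625, so the unchanged differences of −1.05 and −1.01 (Il2rg to Il13ra1) and 0.46 and 0.57 (Jak3 to Tyk2) could not pass, with an exact adjusted p of 0.113. Low fragment numbers limit Il4.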

Other observations

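Within the groups with miRNA overexpression, the pathway genes did not vary alike. With miR-144 and with miR-451a alike, replicate 4 had the highest Il4ra level (30.3 and 30 FPKM) together with the lowest Il2rg (44.0 and 47.9 FPKM) and the lowest Stat6 (64.5 and 62.8 FPKM). Replicate 5 of either group had the lowest Il13ra1 (9.22 and 8.92 FPKM) together with the highest Il2rg (55.0 and 55.5 FPKM) and the highest Stat6 (69.8 and 68.8 FPKM). The labels tie no sample of the miR-144 group to a sample of the miR-451a group, and this was noticed after the values were seen and was not tested.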
